A study of Lachancea kluyveri with 31 samples.

Results

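*IDH1* (SAKL0E07876g, chromosome E) and *IDH2* (SAKL0G03520g, chromosome G) are the genes for the subunits of the mitochondrial NAD-dependent isocitrate dehydrogenase of the protoploid yeast *Lachancea kluyveri*. They were taken as every probe whose name starts with either locus tag, which gave 2 of 5316 genes and 4 of 10620 probes on a one-colour Agilent expression array. Custom arrays were hybridised with RNA of 4 strains grown at 2 iron levels, giving 8 groups and 31 arrays. The double mutant *sef1*Δ*aft1*Δ (*sef1*Δ::KanMX6 *aft1*Δ::HphMX4), the *sef1*Δ mutant (*sef1*Δ::KanMX6), the *aft1*Δ mutant (*aft1*Δ::KanMX6) and WT were each measured at low and at high iron with 4 arrays, except *sef1*Δ at high iron with 3. All strains are MATa *ura3*, the mutants derive from the WT strain, and each mutant is 1 listed strain, so a second event in a strain and its deletion cannot be told apart. Cells were grown overnight in YPD at 28 °C, diluted to 0.5 OD600 per ml and grown for 5.5 h at 30 °C, either with bathophenanthroline disulfonate, an iron chelator (low iron), or with added ferrous iron (high iron). The labels write the amounts as 200 and 400 mM, whereas the study's methods give the same figures in micromolar units.

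Isocitrate dehydrogenase oxidises isocitrate to α-ketoglutarate inside mitochondria, a step of the TCA cycle that releases carbon dioxide and yields NADH for respiration. In *Saccharomyces cerevisiae* the enzyme is built from Idh1, the regulatory subunit, and Idh2, the catalytic subunit, and neither subunit alone carries the activity. α-Ketoglutarate is also the carbon skeleton of glutamate, so the enzyme links respiration to nitrogen assimilation. Sef1 is a zinc cluster transcription factor and Aft1 is the activator of iron uptake genes in *S. cerevisiae*. The comparisons ask how the transcripts of both subunits respond to the loss of either regulator and to iron.

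Each value below is a normalized signal, the log2 of a spot's background-subtracted intensity minus the log2 of the 75th percentile of the same array, so that 0 equals that percentile. A gene was called when the Benjamini-Hochberg adjusted p of limma's moderated test over all genes did not exceed 0.05 and its fold change was 1.5 or more. Values are given as mean ± SD over arrays, and fold changes on the log2 scale with their SE. All 4 probes were well above background on all 31 arrays, and none was saturated or marked as an outlier spot. Since every array is scaled to its own percentile, a change of total RNA per cell would not be seen.

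Every strain lay on a slide of its own, with both iron levels on that slide. The 3 mutant slides were scanned together and the slide with WT arrays in a separate session. A difference between any strains and a difference between slides can therefore not be told apart. In comparisons with WT the scan session is confounded as well, whereas the iron comparisons lie within a slide. The 75th percentile of intensity ranged from 10424 to 23244, and 97.8% to 99.7% of probes were well above background. The main *SEF1* probe had normalized signals of −7.62 to −6.20 in both strains labelled *sef1*Δ or *sef1*Δ*aft1*Δ, against −2.19 to −1.93 in *aft1*Δ and WT. The main *AFT1* probe lay between −10.46 and −7.17 in both strains labelled as lacking *AFT1*, against −3.67 to −0.50 in *sef1*Δ and WT. Its other probe was well above background on all 31 arrays and separated them less. It ran from −5.24 to −2.96 in the strains labelled as lacking *AFT1*, against −2.78 to −0.56. In *sef1*Δ*aft1*Δ against *sef1*Δ at high iron that probe differed by −0.55, without a call. Chromosome A stood apart on the *aft1*Δ slide, where its 447 genes had a median log2 difference from WT of 0.85 at low and 0.81 at high iron. The medians of chromosomes E and G, which hold *IDH1* and *IDH2*, were −0.07 and −0.05 at low iron and −0.10 and −0.05 at high iron.

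Both genes fell in every comparison in which *SEF1* was lost, by 2.13-fold to 2.86-fold, and no call was made for either gene for low iron or for the loss of *AFT1*. The main probe of *IDH1* had signals in *sef1*Δ*aft1*Δ of 0.78, 0.71, 0.81 and 1.09 at low iron and 0.91, 0.91, 0.88 and 0.97 at high iron. The *sef1*Δ signals were 0.66, 0.98, 0.83 and 0.87 at low iron and 0.72, 0.79 and 0.70 at high iron. In *aft1*Δ the signals were 2.29, 1.99, 2.41 and 2.20 at low iron and 2.02, 2.06, 1.95 and 2.07 at high iron. WT cells had 2.26, 2.21, 2.34 and 2.25 at low iron and 2.18, 2.20, 2.49 and 2.12 at high iron. The 15 arrays of cells without *SEF1* thus reached at most 1.09, whereas the lowest of the 16 arrays with *SEF1* was 1.95.

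*IDH2* followed the same pattern. Its main probe had signals of 0.97, 0.77, 0.90 and 1.24 at low iron and 0.60, 0.81, 0.82 and 0.79 at high iron in *sef1*Δ*aft1*Δ. The *sef1*Δ cells had 0.70, 0.69, 0.81 and 0.80 at low iron and 0.84, 0.75 and 0.79 at high iron. For *aft1*Δ the values were 1.94, 1.95, 2.12 and 2.23 at low iron and 1.86, 1.77, 1.89 and 2.00 at high iron. In WT they were 2.33, 2.26, 2.20 and 2.13 at low iron and 2.29, 2.29, 2.33 and 2.16 at high iron. Again the arrays without *SEF1* and those with it did not overlap, with 1.24 as the highest value of the 15 arrays without *SEF1* and 1.77 as the lowest of the 16 with it.

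**Figure D1:**
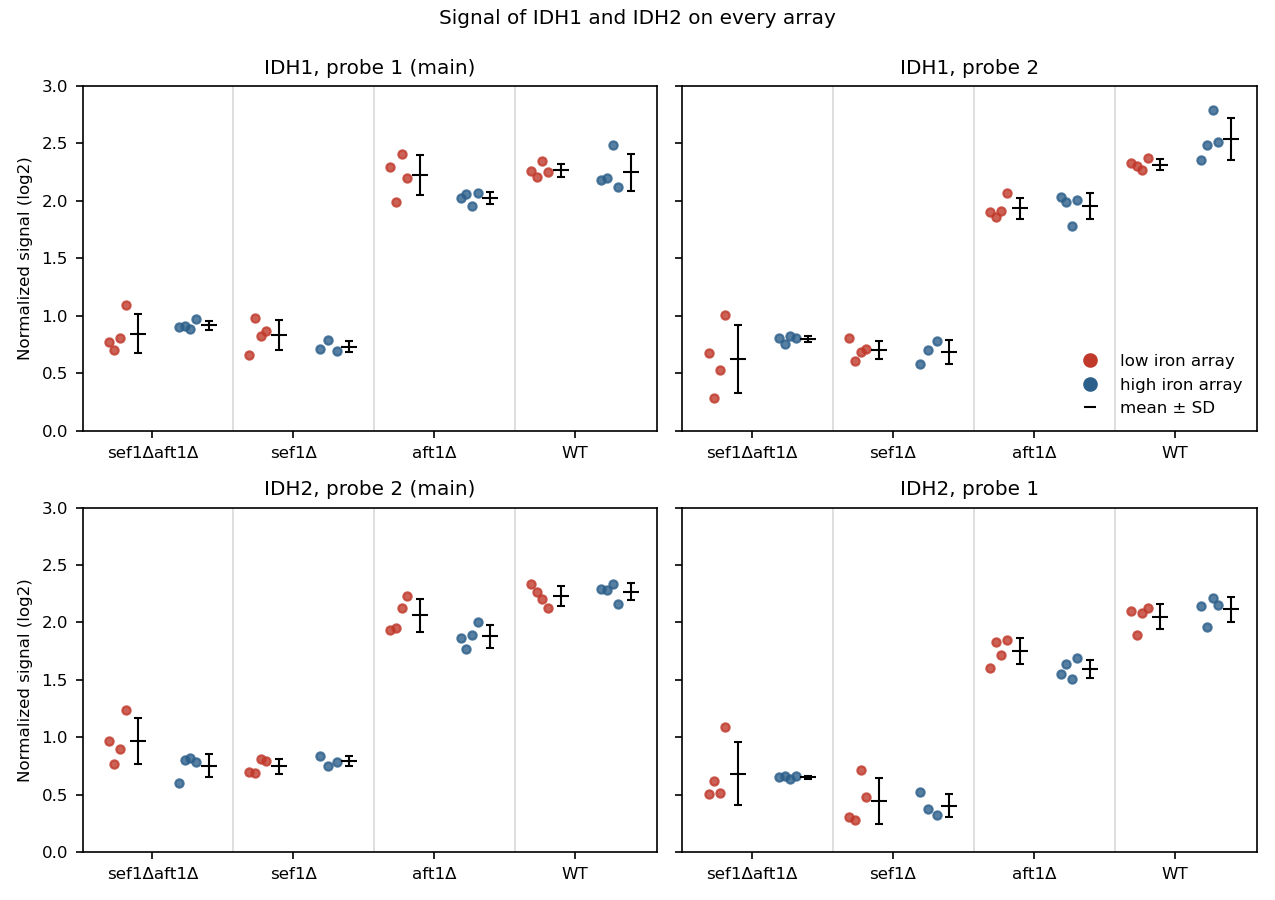
Normalized signal (log2) of both probes of *IDH1* and of *IDH2* on each of the 31 arrays, by strain; red points are low iron arrays, blue points high iron arrays, and black bars the mean ± SD of a group. With every probe all 15 arrays of *sef1*Δ*aft1*Δ and *sef1*Δ lie below all 16 arrays of *aft1*Δ and WT.

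In rising order of the mean of the main probe, *IDH1* was lowest in *sef1*Δ at high iron (0.73 ± 0.05, n = 3) and low iron (0.84 ± 0.13, n = 4), followed by *sef1*Δ*aft1*Δ at low iron (0.85 ± 0.17, n = 4) and high iron (0.92 ± 0.04, n = 4). After a gap came *aft1*Δ at high iron (2.03 ± 0.05, n = 4) and low iron (2.22 ± 0.17, n = 4), then WT at high iron (2.25 ± 0.16, n = 4) and low iron (2.27 ± 0.06, n = 4). Each pair of neighbours in that order overlapped except *sef1*Δ*aft1*Δ at high iron and *aft1*Δ at high iron, whose nearest arrays were 0.98 apart. The same 4 groups were lowest for *IDH2*, with means between 0.75 ± 0.06 in *sef1*Δ at low iron and 0.97 ± 0.20 in *sef1*Δ*aft1*Δ at low iron (n = 4 each). Its other 4 means ran between 1.88 ± 0.10 in *aft1*Δ at high iron and 2.27 ± 0.07 in WT at high iron (n = 4 each). Neighbouring groups of *IDH2* overlapped too, except *sef1*Δ*aft1*Δ at low iron and *aft1*Δ at high iron, 0.52 apart.

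The loss of *SEF1* in otherwise intact cells was read from *sef1*Δ against WT. At low iron *IDH1* differed by −1.43 ± 0.09 (SE, 2.70-fold lower; limma adjusted p = 4.12e-13) and *IDH2* by −1.48 ± 0.09 (2.79-fold lower, adjusted p = 6.65e-14). At high iron *IDH1* differed by −1.51 ± 0.10 (2.86-fold lower, adjusted p = 1.45e-12) and *IDH2* by −1.47 ± 0.10 (2.78-fold lower, adjusted p = 1.09e-12). Both members were called lower at both iron levels, where 11.5% of 5315 genes tested at low iron and 10% of 5313 at high iron were called lower. The change was many times its SE in each case, although *sef1*Δ and WT arrays come from different slides and scan sessions.

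Cells that already lacked *AFT1* gave a comparison without any WT array. Between *sef1*Δ*aft1*Δ and *aft1*Δ, *IDH1* was 2.60-fold lower in the strain without *SEF1* at low iron (log2 −1.38 ± 0.09, adjusted p = 5.73e-13) and 2.16-fold lower at high iron (−1.11 ± 0.09, adjusted p = 8.11e-11). *IDH2* was 2.13-fold lower at low iron (−1.09 ± 0.09, adjusted p = 1.98e-11) and 2.18-fold lower at high iron (−1.13 ± 0.09, adjusted p = 2.58e-11). Over all 5316 genes, 13.2% were called lower at low iron and 9.63% at high iron. These slides were scanned in the same session. Each strain still lay on a slide of its own, so strain and slide cannot be told apart in this comparison either.

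The direct contrast of the strains that lack only 1 regulator, *aft1*Δ against *sef1*Δ, also used no WT array. *IDH1* was 2.62-fold higher in *aft1*Δ at low iron (log2 1.39 ± 0.09, adjusted p = 2.21e-13) and 2.45-fold higher at high iron (1.29 ± 0.10, adjusted p = 1.65e-11). *IDH2* was 2.48-fold higher at low iron (1.31 ± 0.09, adjusted p = 2.97e-13) and 2.12-fold higher at high iron (1.09 ± 0.10, adjusted p = 2.13e-10). Of all genes, 17.2% were called higher in *aft1*Δ at low iron and 14.4% at high iron.

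Against WT both genes were called lower in *sef1*Δ*aft1*Δ as well, among 13.6% of all genes at low iron and 9.99% at high iron. The log2 difference of *IDH1* was −1.42 ± 0.09 at low iron (adjusted p = 1.18e-13) and −1.33 ± 0.09 at high iron (adjusted p = 1.51e-12). That of *IDH2* was −1.26 ± 0.09 at low iron (adjusted p = 6.19e-13) and −1.51 ± 0.09 at high iron (adjusted p = 5.95e-14). This comparison shares its WT arrays with *sef1*Δ against WT, so the similar sizes are not independent of each other.

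**Figure D2:**
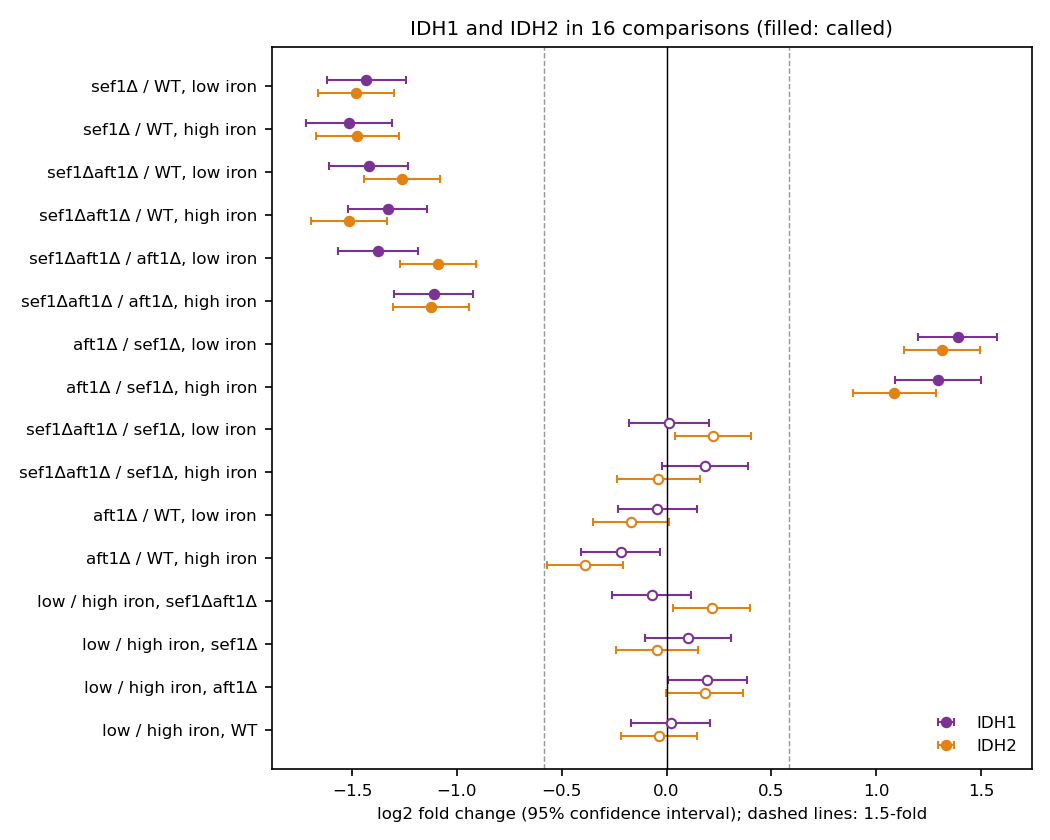
Log2 fold change of *IDH1* (purple) and *IDH2* (orange) in 16 comparisons, with 95% confidence intervals; filled points were called and dashed lines mark a 1.5-fold change. The points of the 8 comparisons between cells without and with *SEF1* lie between 1.09 and 1.51 from 0, and the other 8 comparisons lie within 0.39 of 0.

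No call was made for the loss of *AFT1*. In *aft1*Δ against WT, where 40.9% of all genes were called at low iron and 31.6% at high iron, *IDH1* differed by −0.04 at low iron (95% interval −0.23 to 0.15, adjusted p = 0.689). At high iron its difference of −0.22 (interval −0.41 to −0.03, adjusted p = 0.041) was under the fold threshold. *IDH2* differed by −0.17 at low iron (interval −0.35 to 0.01, adjusted p = 0.0892) and by −0.39 at high iron (interval −0.57 to −0.21, adjusted p = 0.000391), again under 1.5-fold. The high iron values of *IDH2* were 1.77 to 2.00 in *aft1*Δ and 2.16 to 2.33 in WT. How many of all genes separate in this way was not counted, and these strains lie on different slides and scan sessions. With the array's median in place of the 75th percentile the high iron difference of *IDH2* became −0.59 and was called. With quantile normalization it was −0.17, so its size rests on the scaling.

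In cells without *SEF1*, the further loss of *AFT1* gave no call either. Comparing *sef1*Δ*aft1*Δ with *sef1*Δ, where 19.8% of all genes were called at low iron and 10.9% at high iron, *IDH1* differed by 0.01 at low iron (interval −0.18 to 0.20, adjusted p = 0.93) and by 0.18 at high iron (interval −0.02 to 0.39, adjusted p = 0.159). *IDH2* differed by 0.22 at low iron (interval 0.04 to 0.40, adjusted p = 0.0401) and by −0.04 at high iron (interval −0.24 to 0.16, adjusted p = 0.775). These intervals leave out changes of 1.5-fold in either direction. Replicate 4 of *sef1*Δ*aft1*Δ grown with chelator was the highest array of its group for both genes, at 1.09 for *IDH1* and 1.24 for *IDH2*; the calls of both genes were the same without it.

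Whether the effect of *SEF1* loss depended on *AFT1* was tested as the difference between *sef1*Δ*aft1*Δ against *aft1*Δ and *sef1*Δ against WT, a test added after the values had been seen. For *IDH1* the difference was 0.05 ± 0.13 at low iron (adjusted p = 0.741) and 0.40 ± 0.14 at high iron (adjusted p = 0.0163), a smaller fall in cells without *AFT1* at high iron. For *IDH2* it was 0.39 ± 0.13 at low iron (adjusted p = 0.00862) and 0.35 ± 0.13 at high iron (adjusted p = 0.0287). None of the 4 differences reached 1.5-fold, although with the other probe those at high iron did, at 0.70 for *IDH1* and 0.77 for *IDH2*, whereas 43.6% of all genes at low iron and 32.4% at high iron were called in the same test. All 4 slides enter it, so slide offsets do not cancel.

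Iron was compared within each slide. The low against high iron difference of *IDH1* was −0.07 in *sef1*Δ*aft1*Δ (95% interval −0.26 to 0.12, adjusted p = 0.564), 0.10 in *sef1*Δ (−0.10 to 0.31, adjusted p = 0.551), 0.19 in *aft1*Δ (0.01 to 0.38, adjusted p = 0.202) and 0.02 in WT (−0.17 to 0.21, adjusted p = 0.927). For *IDH2* it was 0.21 in *sef1*Δ*aft1*Δ (0.03 to 0.40, adjusted p = 0.0512), −0.04 in *sef1*Δ (−0.24 to 0.15, adjusted p = 0.814), 0.18 in *aft1*Δ (−0.001 to 0.36, adjusted p = 0.22) and −0.04 in WT (−0.22 to 0.15, adjusted p = 0.839). Neither member was called in any strain, where iron was called to change 14.6%, 5.81%, 3.35% and 4.73% of all genes in *sef1*Δ*aft1*Δ, *sef1*Δ, *aft1*Δ and WT. Every one of these 95% intervals lay inside a 1.5-fold change in either direction.

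The iron response was also compared between strains, which cancels an offset between slides. Against WT, the response of *IDH1* differed by −0.09 ± 0.13 in *sef1*Δ*aft1*Δ (adjusted p = 0.671), 0.08 ± 0.14 in *sef1*Δ (adjusted p = 0.768) and 0.18 ± 0.13 in *aft1*Δ (adjusted p = 0.459). That of *IDH2* differed by 0.25 ± 0.13 in *sef1*Δ*aft1*Δ (adjusted p = 0.152), −0.01 ± 0.13 in *sef1*Δ (adjusted p = 0.981) and 0.22 ± 0.13 in *aft1*Δ (adjusted p = 0.316). None was called, among 13.6%, 2.88% and 5.61% of genes called in the 3 tests. Set against *aft1*Δ, the response in *sef1*Δ*aft1*Δ differed by −0.27 ± 0.13 for *IDH1* (adjusted p = 0.135) and 0.03 ± 0.13 for *IDH2* (adjusted p = 0.865), where 14.2% of genes were called. Set against *sef1*Δ, it differed by −0.17 ± 0.14 for *IDH1* (adjusted p = 0.371) and 0.26 ± 0.13 for *IDH2* (adjusted p = 0.144), where 15.6% were called.

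The other probe of each gene was read from a fit over all probes. For *IDH1* probe 2 fell by 1.61 in *sef1*Δ against WT at low iron and by 1.85 at high iron, and in *sef1*Δ*aft1*Δ against *aft1*Δ by 1.31 and 1.15. For *IDH2* probe 1 fell by 1.60 and 1.71 in *sef1*Δ against WT, and by 1.07 and 0.94 in *sef1*Δ*aft1*Δ against *aft1*Δ. All 8 of these changes were called, among 8.68% and 7.23% of all probes called lower in *sef1*Δ at low and high iron and 14.3% and 10.2% in *sef1*Δ*aft1*Δ against *aft1*Δ. The separation of arrays held with these probes too: *IDH1* probe 2 was at most 1.01 without *SEF1* and at least 1.78 with it, and *IDH2* probe 1 at most 1.09 and at least 1.51. Between *aft1*Δ and WT the other probe gave larger differences. *IDH1* probe 2 differed by −0.58 in *aft1*Δ against WT at high iron (adjusted p = 2.21e-05) and *IDH2* probe 1 by −0.52 (adjusted p = 0.000115), both under 1.5-fold, and at low iron by −0.38 (adjusted p = 0.00231) and −0.30 (adjusted p = 0.0153).

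No change in the ratio of the subunit genes passed its test, which the number of arrays left little room to pass. The per-array difference *IDH1* minus *IDH2* was compared by an exact two-sided permutation test in 16 comparisons. At low iron its mean was −0.12 ± 0.06 for *sef1*Δ*aft1*Δ, 0.09 ± 0.14 for *sef1*Δ, 0.16 ± 0.19 for *aft1*Δ and 0.04 ± 0.11 for WT (SD, n = 4 each). At high iron it was 0.16 ± 0.11, −0.06 ± 0.08, 0.15 ± 0.11 and −0.02 ± 0.12 in the same strains (n = 4, with 3 for *sef1*Δ). In *sef1*Δ against WT the ratio moved by 0.05 at low iron (exact p = 0.6) and by −0.04 at high iron (exact p = 0.686). With the main probes the largest shifts, −0.29 each, were for low against high iron in *sef1*Δ*aft1*Δ and for *sef1*Δ*aft1*Δ against *aft1*Δ at low iron. Both had exact p = 0.0286, the smallest that 4 against 4 arrays allow, and an adjusted p of 0.152 over the 16 comparisons. With 3 against 4 arrays the smallest possible p is 0.0571, so these comparisons could not pass 0.05. With 4 against 4 arrays a comparison could pass after adjustment only if many others also reached the smallest p. The lack of a call therefore does not show that the ratio was unchanged. Some shifts changed sign with the probes: for *sef1*Δ*aft1*Δ against WT at high iron the shift was 0.18 with the main and −0.28 with the other probes, and for *sef1*Δ*aft1*Δ against *sef1*Δ at high iron 0.22 and −0.14. At low iron lay the largest shifts with either alternative, −0.33 with the other probes (*sef1*Δ*aft1*Δ against WT) and −0.40 with normexp background correction (*sef1*Δ*aft1*Δ against *aft1*Δ).

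**Figure D3:**
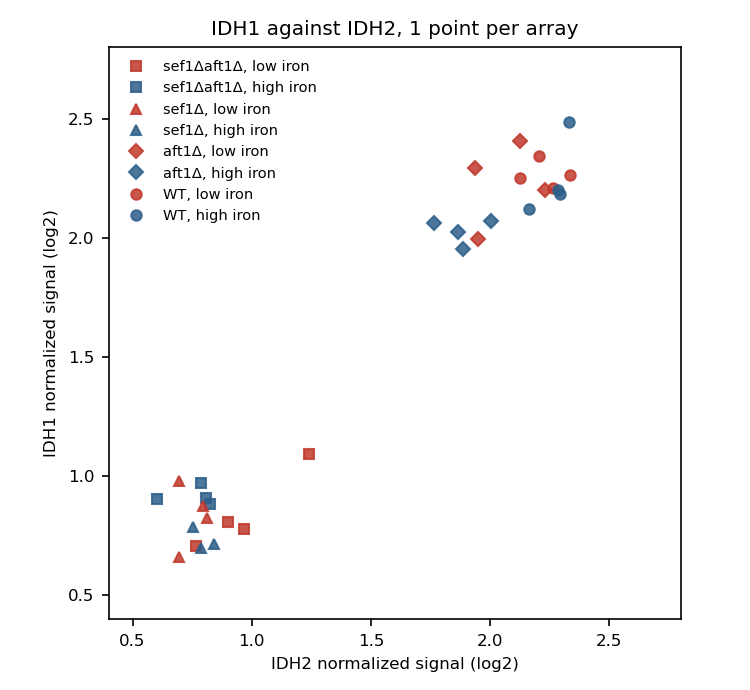
Normalized signal (log2) of *IDH1* against *IDH2* with the main probes, 1 point per array; shape gives the strain and colour the iron level (red low, blue high). The 15 arrays of *sef1*Δ*aft1*Δ and *sef1*Δ and the 16 arrays of *aft1*Δ and WT form separate sets.

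Since the arrays form separate sets, the likeness of *IDH1* and *IDH2* was described within each. Pearson's r between the genes was 0.37 over the 15 arrays without *SEF1* and 0.64 over the 16 arrays with it, and 0.47 over deviations from group means. The probes of *IDH1* gave 0.51 and 0.53 within the same sets and those of *IDH2* 0.65 and 0.82. Both genes of an array share its labelling, hybridisation and scaling.

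A scan of all genes put the separation in scale. Of 4572 genes with a value on every array, 18 (0.394%) had all 15 arrays without *SEF1* below all 16 arrays with it, a split chosen after the members' values had been seen. The widest gap was that of *SEF1* itself, at 4.01 on the log2 scale, followed by *IDH1* at 0.86 and *IDH2* at 0.52. The next was SAKL0A08888g at 0.15, and the remaining 14 were closer. Chromosome A, raised on the *aft1*Δ slide, held 10 of the 18, and its part in this list was not tested. *NDE2*, an external NADH dehydrogenase of mitochondria in *S. cerevisiae*, was among those outside it, with a gap of 0.07. With the main probes, *IDH1* and *IDH2* were the only TCA cycle genes in the list among the 20 with a value on every array. The other probe of *ACO1*, the aconitase gene, also separated the arrays, at most 2.13 without *SEF1* and at least 2.25 with it. Other probes were not part of the scan.

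The genes most like the members were ranked by Pearson's r over the 31 arrays with the mean of *IDH1* and *IDH2*, among 4473 genes well above background on every array. The 10 highest were *ATG3* (0.93), *IMA1* (0.90), SAKL0A07502g (0.87), SAKL0C03960g (0.87), SAKL0A08888g (0.86), *YIG1* (0.86), SAKL0A03498g (0.86), *PDR15* (0.86), *OSH7* (0.86) and *VBA2* (0.86). In *S. cerevisiae*, *ATG3* encodes a conjugating enzyme of autophagy, *IMA1* an isomaltase, *PDR15* a drug transporter and *OSH7* a lipid transfer protein. Chromosome A held 8 of these 10, against 8.70% of the 4473 candidates, and its part in this ranking was not tested either. Their r over deviations from group means ran from −0.28 for SAKL0A03498g to 0.60 for SAKL0A07502g, so most of the likeness lay between groups. With chromosome A left out, a choice made after seeing the list, the first 5 were SAKL0C03960g, *PDR15*, SAKL0G02486g (0.86), *STP4* (0.84) and *ACO1* (0.84). *ACO1* encodes aconitase, the enzyme that makes isocitrate, and had the highest r of the TCA cycle genes over the 31 arrays. Over the 23 arrays without *aft1*Δ the r of *IDP3* was 0.95 and that of *ACO1* 0.84.

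The pathway was read from 21 TCA cycle genes that include both members. In *sef1*Δ against WT at low iron, where 21.6% of all genes were called either way, 10 of the 21 were called lower and 2 higher, with a median log2 difference of −0.54 against −0.01 over all genes. At high iron, with 17.9% of all genes called, 6 were called lower and 1 higher, with a median of −0.52 against 0.00, and the number called lower was 13 with scaling to the median and 10 without replicate 1 of *sef1*Δ at high iron. *IDP3*, the peroxisomal NADP-dependent isocitrate dehydrogenase of *S. cerevisiae*, fell most, by 3.13 at low and 2.86 at high iron. *IDH1* and *IDH2* came next at both iron levels, followed by *ACO1*, which fell by 1.41 at low and 1.08 at high iron, the first of these within the SE of the members' values.

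Some calls at other steps depended on the probe. Of the other genes called lower at low iron in *sef1*Δ, *CIT1* (citrate synthase) fell by 0.80 and *IDP1* (the mitochondrial NADP-dependent isocitrate dehydrogenase) by 0.74. The 4 genes of succinate dehydrogenase, *SDH1*, *SDH2*, *SDH3* and *SDH4*, fell by 0.76, 0.78, 0.63 and 0.83. With the other probe *IDP1*, *SDH3* and *SDH4* differed by −0.46, −0.13 and −0.52 and were not called. *KGD2*, a subunit of the α-ketoglutarate dehydrogenase that uses the product of Idh, rose by 0.63 at low and 0.88 at high iron with its main probe, but its other probe differed by 0.01 at each iron level, without a call. The other subunit genes of that complex, *KGD1* and *LPD1*, differed by −0.40 and −0.51 at low iron and were not called. *CIT3*, another citrate synthase gene, rose by 1.22 at low iron with its main probe, which was well above background on 28 of 31 arrays, and differed by 0.17 with the other, well above background on 20, without a call.

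The same list was read in cells without *AFT1*. Set against *aft1*Δ at low iron, where 26.5% of all genes were called either way, *sef1*Δ*aft1*Δ had 3 of 21 called lower, namely *IDH1*, *IDH2* and *ACO1* (−1.09), and 4 higher, with a median of 0.19 against 0.01 over all genes. At high iron, with 18.1% of all genes called, 4 were lower, *IDH1*, *IDH2*, *ACO1* (−0.75) and *IDP3* (−1.27), and 1 higher, with a median of 0.00 against 0.10. *IDH1*, *IDH2* and *ACO1* were thus the genes of the list called lower, with the main probes, in all 4 comparisons of cells without and with *SEF1* on a matched *AFT1* background. At high iron the other probe of *ACO1* differed by −0.46 and that of *IDP3* by −0.44 in *sef1*Δ*aft1*Δ against *aft1*Δ, without a call. *MDH2*, a malate dehydrogenase gene, rose by 1.24 and *LSC1*, a subunit of succinyl-CoA ligase, by 0.87 at low iron.

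**Figure D4:**
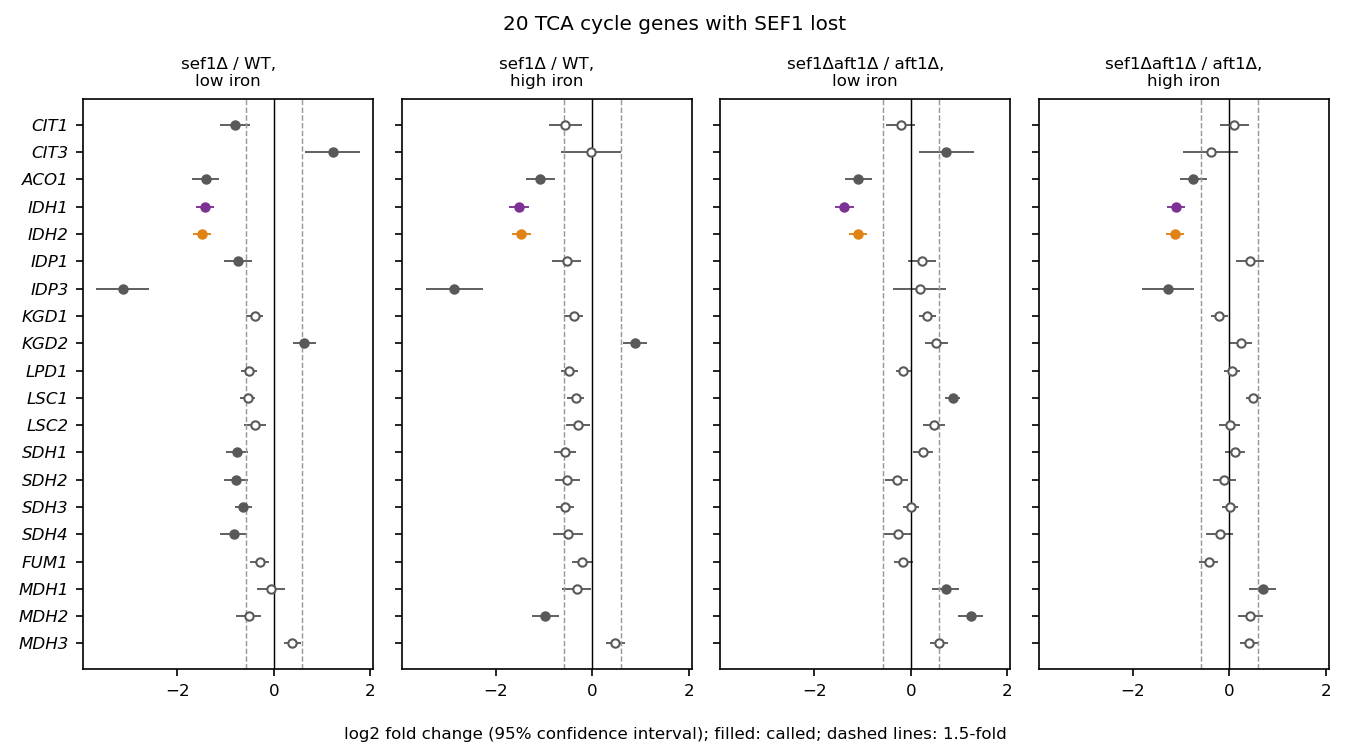
Log2 fold change with 95% confidence interval of 20 TCA cycle genes in *sef1*Δ against WT and in *sef1*Δ*aft1*Δ against *aft1*Δ at each iron level; *IDH1* is purple, *IDH2* orange, filled points were called and dashed lines mark 1.5-fold. *IDH1*, *IDH2* and *ACO1* are filled on the lower side in all 4 panels.

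Other genes were called in *aft1*Δ. Against WT, 40.9% of all genes were called either way at low iron and 31.6% at high iron. At low iron 7 of 21 genes were called lower and 3 higher (median −0.28 against −0.02 over all genes), near the share over all genes. At high iron 10 were called lower and 1 higher (median −0.56 against −0.03). Neither *IDH1* nor *IDH2* was among them, while *IDP3* fell by 2.61 and 1.64 and *MDH2* by 1.64 and 1.62 at low and high iron. With quantile normalization the number called lower at high iron was 4, and with the 75th percentile taken over probes outside chromosome A it was 6. The *sef1*Δ*aft1*Δ against WT contrast, with 31.6% of all genes called at low and 26.8% at high iron, gave 6 lower and 3 higher at low iron (median 0.01 against 0.01) and 10 lower and 1 higher at high iron (median −0.52 against 0.06). Comparing *sef1*Δ*aft1*Δ with *sef1*Δ, where 19.8% of all genes were called at low and 10.9% at high iron, 9 were called higher at low iron. At high iron limma called 0, as did the methods' t-test at its own threshold, and 3 had an unadjusted p under 0.05 in limma. The *aft1*Δ against *sef1*Δ contrast, with 26.3% of all genes called at low and 18.5% at high iron, gave 7 higher and 2 lower at low iron and 5 higher and 1 lower at high iron.

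Iron changed other genes of the cycle than the members, with most of the calls in *sef1*Δ and WT. At low against high iron, 6 of 21 were called lower in *sef1*Δ (median −0.24), where 5.81% of all genes were called either way. In WT 5 of 21 were called lower (median −0.26), against 4.73% of all genes. *SDH2* fell by 1.21 and *SDH1* by 0.94 in *sef1*Δ, and by 0.95 and 0.76 in WT. In *aft1*Δ 1 gene of 21, *IDP3*, was called lower, by 0.96, near the share of 3.35% over all genes. That call was lost with the other probe (−0.08) and without *aft1*Δ replicate 4 at high iron or replicate 1 or 2 at low iron. Only upward calls were made in *sef1*Δ*aft1*Δ, for 2 genes of 21, *CIT3* by 1.05 and *LSC2* by 0.74. This count was not above the share of 14.6% over all genes in that strain. The other probe of *CIT3* differed by −0.06, without a call. *SDH4* (−0.95), *ACO1* (−0.88) and *IDP1* (−0.62) were also called lower in *sef1*Δ, as were *CIT3* (−1.22) and *SDH4* (−0.62) in WT. *ACO1* was not called in WT. With the other probe, *IDP1* in *sef1*Δ and both *CIT3* and *SDH4* in WT were not called. Succinate dehydrogenase and aconitase are iron-sulfur enzymes, whereas isocitrate dehydrogenase is not. A link between this and the calls for iron was not tested.

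Genes that share isocitrate or α-ketoglutarate with the enzyme were followed in the same comparisons. *ICL1*, isocitrate lyase of the glyoxylate shunt, fell by 1.06 at low and 1.05 at high iron in *sef1*Δ against WT, and in *aft1*Δ against WT by 1.05 and 0.85. Between *sef1*Δ*aft1*Δ and *aft1*Δ it rose by 0.70 at low iron and differed by 0.48 at high iron, without a call. *GDH2*, the NAD-dependent glutamate dehydrogenase, fell by 1.07 and 1.01 when *sef1*Δ was set against WT, and it decreased by 1.41 and 0.61 for *aft1*Δ. Its other probe differed by −0.36 and −0.39 in *sef1*Δ and by −0.24 in *aft1*Δ at high iron, without a call, and fell by 0.62 in *aft1*Δ at low iron. *GDH3*, an NADP-dependent glutamate dehydrogenase that uses α-ketoglutarate, rose by 1.75 and 1.29 in *aft1*Δ against WT and differed by 0.07 and 0.17 in *sef1*Δ. *GLT1*, glutamate synthase, was not called in *sef1*Δ at either iron level and rose by 1.71 in *aft1*Δ at low iron. *MLS1*, malate synthase, differed by −0.42 and −0.29 in *sef1*Δ against WT, without a call. The regulator genes *RTG3* and *HAP3*, which act on TCA cycle genes in *S. cerevisiae*, were not called in *sef1*Δ, *aft1*Δ or *sef1*Δ*aft1*Δ against WT at either iron level. With their main probes the reference genes *ACT1* and *TEF2* were called in none of the 16 comparisons, with log2 differences between −0.53 and 0.26. The probes of *ACT1* disagreed in direction. At high iron its other probe had a mean of 3.37 in *sef1*Δ*aft1*Δ and 2.60 in WT, whereas the main probe had 3.67 and 3.88.

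The gene next to each member, as listed in the study's tables, was measured on the same arrays. *FMC1* (SAKL0E07898g), an assembly factor of the mitochondrial ATP synthase in *S. cerevisiae*, is the next gene to *IDH1*. Its main probe had signals at low iron of −1.64 to −0.65 in *sef1*Δ*aft1*Δ, −1.57 to −1.34 in *sef1*Δ, −1.14 to −1.04 in *aft1*Δ and −1.87 to −1.32 in WT. It was not called in *sef1*Δ against WT, with a difference of 0.20 at low iron (adjusted p = 0.263) and 0.55 at high iron (adjusted p = 0.00528). In *aft1*Δ against WT it rose by 0.59 at low iron (adjusted p = 0.000713). At low iron it also rose in *sef1*Δ*aft1*Δ against WT, by 0.64. No comparison called it lower.

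The probes of *FMC1* disagreed on size. Probe 1 was higher in all mutants than in WT, by 1.38 at low and 1.44 at high iron in *sef1*Δ*aft1*Δ, with 0.92 and 1.07 for *sef1*Δ, and 1.24 and 1.05 for *aft1*Δ, and all 6 differences were called. Without WT arrays, in *sef1*Δ*aft1*Δ against *aft1*Δ, probe 1 differed by 0.14 and 0.40 and the main probe by 0.05 and 0.19, with no call. A difference between the WT slide and the mutant slides was not tested apart from strain.

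*UBA2* (SAKL0G03498g), a subunit of the SUMO activating enzyme in *S. cerevisiae*, is the next gene to *IDH2*. Its main probe ran from −0.25 to 0.01 in *sef1*Δ*aft1*Δ, from −0.85 to −0.12 in *sef1*Δ, from −0.66 to −0.58 in *aft1*Δ and from −0.59 to −0.24 in WT, all at low iron. It differed by 0.10 at low and −0.16 at high iron in *sef1*Δ against WT (adjusted p = 0.44 and 0.257) and was called in none of the 16 comparisons. The *sef1*Δ*aft1*Δ against *aft1*Δ difference was 0.50 at low iron (adjusted p = 0.000178) and 0.40 at high iron (adjusted p = 0.0022), under 1.5-fold. *UBA2* probe 1 rose by 0.69 at low against high iron in *sef1*Δ*aft1*Δ (adjusted p = 1.25e-05), where the main probe differed by 0.20. Neither neighbour was called lower in a comparison of cells without and with *SEF1*, with either probe.

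**Figure D5:**
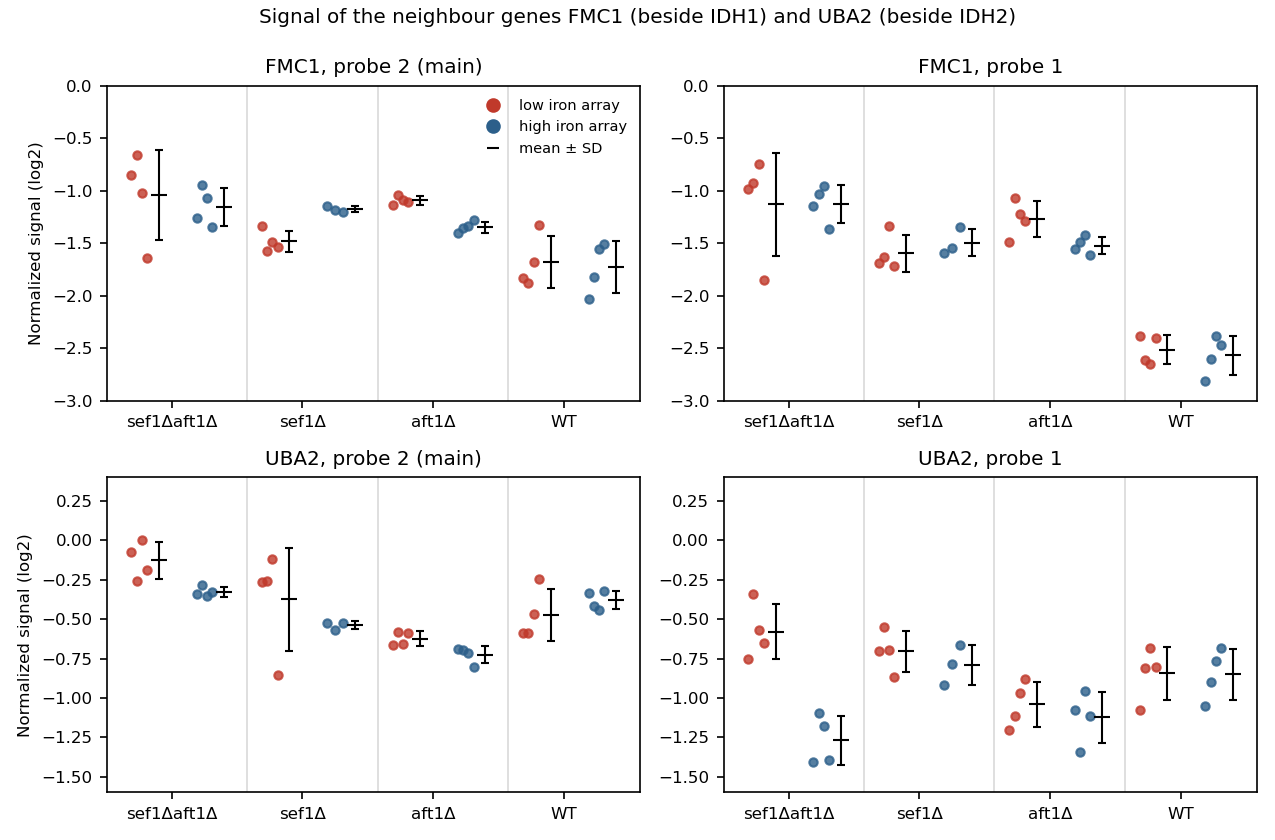
Normalized signal (log2) of *FMC1*, beside *IDH1*, and *UBA2*, beside *IDH2*, with both probes on each array; red points are low iron arrays, blue points high iron arrays, and black bars the mean ± SD. *FMC1* probe 1 is lowest in WT, at −2.81 to −2.38. The main probe of *UBA2* is higher in *sef1*Δ*aft1*Δ than in *aft1*Δ at both iron levels without overlap, but was not called. How many of all genes separate in this way was not counted.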

How the data were processed

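RNA of 31 cultures, described as biological replicates, was hybridised to custom one-colour arrays, 1 array each. The deposited intensity values are Agilent Feature Extraction 10.5.1.1 processed signals, which were background-subtracted and spatially detrended per array. The authors' deposited log2 table holds the same spots relative to each array's 75th percentile (GeneSpring), and differed from the values used here by at most 0.00837.

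Here the log2 of the processed signal minus the array's 75th percentile over 10620 probes was used, without control spots and without spots marked as non-uniform outliers. Each of 5316 genes had 1 probe: that listed in the study's tables for 1999 and 906 genes, otherwise the brighter (2411 genes). limma 3.58.1 (R 4.3.3) fitted a mean per group over 31 arrays, without covariates. Of the 21 TCA cycle genes, 1 was counted in the list but is not reported singly here. The script was tested on simulated data. Per-array ratios were compared by exact permutation. Depth does not apply to arrays, whose number limits precision. Alternatives were another scaling, background correction, probe, test, filter and fold threshold, a replicate block and leaving out each array.

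Deviations from group means were correlated between same-numbered arrays of both iron levels, a pairing that comes from replicate numbers in the labels. The correlations were 0.124 to 0.481 in WT, 0.116 to 0.285 in *aft1*Δ, 0.242 to 0.529 in *sef1*Δ*aft1*Δ and −0.0955 to 0.224 in *sef1*Δ. Across strains the correlations ran from −0.278 to 0.296. Those of *aft1*Δ and *sef1*Δ lay wholly inside that range, and only some of WT and *sef1*Δ*aft1*Δ lay above it. The members, lists and named genes (members, listed genes, 10 most like them) were chosen with earlier results of these data known. p-values measure the spread between these arrays.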

Additional observations from a re-analysis of the deposited data

Results flagged for a closer look

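Of 63 groups of 4 arrays tested for an array far from the others, 1 was marked, while chance marks about 1 in 20. It was *IDH1* probe 2 in *aft1*Δ at high iron, where replicate 3 had a normalized signal of 1.78 and the other arrays 1.99 to 2.03; the main probe of *IDH1* had 1.95 on that array. Neither member had an iron response that was called to differ between strains. Among 20 TCA cycle genes, 14 such differences were called over 5 comparisons of strains (limma, adjusted over all genes), each with the response to low iron shifted upward. Of all genes, 13.6%, 15.6% and 14.2% were called for *sef1*Δ*aft1*Δ against WT, *sef1*Δ and *aft1*Δ. The shares for *aft1*Δ and *sef1*Δ against WT were 5.61% and 2.88%. With 3 of 21 called for *sef1*Δ*aft1*Δ against *aft1*Δ, the list was near the share over all genes there. For *sef1*Δ*aft1*Δ against WT the response differed by 2.27 for *CIT3*, 0.79 for *MDH2*, 0.67 for *SDH2*, 0.61 for *SDH1* and 0.60 for *KGD1*. Against *sef1*Δ it differed by 0.94 for *SDH2*, 0.79 for *SDH1*, 0.79 for *KGD2*, 0.61 for *KGD1* and 0.60 for *SDH4*. Against *aft1*Δ it differed by 1.46 for *IDP3*, 1.12 for *CIT3* and 0.81 for *MDH2*, and in *aft1*Δ against WT by 0.86 for *SDH2*. With the other probe of the gene, 7 of these 14 were not called: *CIT3* differed by −0.06 against WT and −0.09 against *aft1*Δ (main probe well above background on 28 of 31 arrays, other on 20), *IDP3* by 0.67 against *aft1*Δ, *KGD1* by 0.56 and *SDH4* by 0.45 against *sef1*Δ, and *SDH2* against WT by 0.55 in *sef1*Δ*aft1*Δ and 0.56 in *aft1*Δ.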

How the results depend on the processing

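*IDH1* and *IDH2* kept direction and call in all 8 comparisons between cells without and with *SEF1* under all 17 alternatives and without each of the 31 arrays. Over all comparisons 2177 values of the members stayed on their side of the call and 3 did not, namely *IDH2* in *aft1*Δ against WT at high iron, called with scaling to the median (−0.59), and the difference of *SEF1* effects at high iron, called with the other probe for *IDH1* (0.70) and *IDH2* (0.77). Of 1412 values of members in comparisons without a call, 50 had the other sign. The ratio of the genes had the other sign in 24 of 528 values, over 11 of 16 comparisons. Values of *IDH1* in *aft1*Δ against WT, never called, ran from −0.58 to 0.03 at high and −0.38 to 0.09 at low iron, so their sign depends on the setting. Over the 6 comparisons with WT, 44.0% to 62.7% of called genes were higher in the mutant, but 28.7% to 40.5% with quantile normalization and 25.6% to 38.8% with scaling to the median, which shifted the median of all genes by −0.23 to −0.12. Strain and slide cannot be told apart, and the number of arrays limits precision.

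With the replicate block no call of a member changed, and among TCA cycle genes 1 became lower (0 without it) in the iron response of *aft1*Δ against WT. The methods' t-test was not run for differences of responses.

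Counts of TCA cycle genes moved by over 1.5 times as follows, and the cause was not tested except where a stricter threshold leaves fewer calls. At 2-fold, iron called 2 lower in *sef1*Δ and in WT, 0 in *aft1*Δ, and 1 higher in *sef1*Δ*aft1*Δ. Against WT it left 4 lower and 1 higher in *sef1*Δ at low iron and 0 higher at high iron, 2 lower in *aft1*Δ at each iron level and 0 higher at high iron, and 5 lower and 0 higher in *sef1*Δ*aft1*Δ at high iron. Set against *aft1*Δ, *sef1*Δ*aft1*Δ had 1 higher at low and 0 at high iron, against *sef1*Δ 2 were higher at low iron, and in *aft1*Δ against *sef1*Δ 1 was lower at low iron, with 0 lower and 3 higher at high iron. Differences of response left 1, 2 and 1 higher for *aft1*Δ against WT and *sef1*Δ*aft1*Δ against WT and *sef1*Δ. With normexp, the other probe, the mean of probes or the brighter probe, iron called 0 lower in *aft1*Δ and *aft1*Δ against *sef1*Δ gave 1 lower at low iron. With normexp or the other probe, iron called 1 higher in *sef1*Δ*aft1*Δ, *sef1*Δ against WT 0 higher at low iron, and *sef1*Δ*aft1*Δ against *aft1*Δ 2 higher at low iron. At high iron that last contrast gave 0 higher with normexp or quantile normalization, and 2 lower and 2 higher with the other probe. The other, mean and brighter probe each gave 0 higher at high iron in *sef1*Δ and *sef1*Δ*aft1*Δ against WT, and mean or brighter 1 higher in *sef1*Δ at low iron. The brighter probe, normexp or scaling to the median gave 0 higher in *aft1*Δ against WT at high iron. Between *sef1*Δ*aft1*Δ and *sef1*Δ, the other probe gave 1 lower and 5 higher at low iron, and the brighter probe 1 lower at low and 1 higher at high iron. The other probe gave 4 lower at low iron in *aft1*Δ against WT, with 4 higher for the difference of their responses. For *sef1*Δ against WT that difference gave 1 higher with the other probe or the mean. Scaling to the median gave 13 lower at high and 1 higher at low iron in *sef1*Δ against WT, and 3 higher in *aft1*Δ against *sef1*Δ at high iron. In *aft1*Δ against WT at high iron quantile normalization gave 4 lower and scaling without chromosome A, added after seeing the data, 6. The same scaling gave 1 lower at low and 0 at high iron in *aft1*Δ against *sef1*Δ.

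Leaving out 1 array at a time, the number called lower ranged from 5 to 10 in *sef1*Δ against WT at high iron (10 without *sef1*Δ replicate 1), from 0 to 1 in *aft1*Δ against *sef1*Δ at high iron (0 without the same array), from 0 to 1 for iron in *aft1*Δ, and from 0 to 2 for iron in *sef1*Δ*aft1*Δ (2 without replicate 4 and 1 without replicate 2 or 3 at low iron or replicate 4 at high iron). The number called higher ranged from 1 to 2 in *sef1*Δ against WT at low iron (1 without WT replicate 3 or 4), from 1 to 2 in *aft1*Δ against WT at high iron (2 without WT replicate 3), and from 0 to 1 for the response of *sef1*Δ against WT (1 without WT replicate 4 at high iron).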
